A study of Mus musculus with 6 samples.

Results

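The genes described here encode 9 SNARE proteins of exocytosis in mouse intestinal cells, chosen by name: Snap25, Stx1a, Vamp1 and Vamp2, which are best known from neurons and endocrine cells, and Snap23, Stx2, Stx3, Vamp3 and Vamp8, which epithelial cells use widely. Earlier results of these data were known when they were chosen. All 9 are on the arrays, with 22 probe sets that carry the symbol of 1 member alone, among 18193 genes and 34945 such probe sets in all. For each gene the values given first are those of the probe set whose 6-array mean was the highest.

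RNA came from 3 samples of fluorescent CCK-EGFP cells and 3 samples of non-fluorescent (non-EGFP) intestinal cells taken in equal number. Both groups were sorted from adult Swiss Webster (SW) mice, and all of these mice were CCK-EGFP transgenic, so the control cells carry the transgene as well. Fluorescence reports the cholecystokinin (Cck) transgene, which makes the sorted cells a pool chosen by 1 hormone gene, and the non-EGFP cells are whatever the dissociated intestine held without fluorescence. Nothing in the labels ties a sample to its own mouse, and the p-values then reflect only how far these samples spread, which may be technical. Values are log2 RMA intensities, on which 1 unit is a doubling, and the 3 arrays per group limit the precision. The background level of 4.60 used below is the 95th percentile of the mean values of 71 olfactory and vomeronasal receptor genes.

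SNARE proteins drive the fusion of vesicles with membranes. A vesicle protein of the VAMP family zippers into a bundle with a syntaxin and a SNAP-family protein of the plasma membrane. In neurons and endocrine cells the regulated form of this step is carried out mainly by VAMP2, syntaxin 1A and SNAP-25, with calcium sensors and complexins acting on the bundle. In epithelial cells SNAP-23 with syntaxin 3 or syntaxin 2 and with VAMP8 or VAMP3 serves delivery to the cell surface and the release of granules such as those of the pancreas.

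Cck read 13.52, 12.90 and 13.06 in CCK-EGFP cells and 8.65, 8.35 and 8.89 in non-EGFP cells. All 10 enteroendocrine markers were higher in CCK-EGFP cells, among them the granins Chgb and Chga and the transcription factor Neurod1. Enterocyte and lymphocyte markers stayed well above background in both groups. The mean level of the 10 measured enterocyte markers was 12.50, 12.65 and 13.27 on CCK-EGFP replicates 1, 2 and 3, against 13.57 to 13.66 in non-EGFP cells, and that of 9 T and NK lymphocyte markers was 9.04, 10.18 and 11.38 against 9.96 to 11.18. Among the CCK-EGFP arrays replicate 3 was highest for both lists, and results that rest on it are also given without it. Of the RNA quality controls, the 3' minus 5' difference of Pcx was 2.36 to 3.07 on the CCK-EGFP arrays, below the 4.26 to 4.38 of the non-EGFP arrays. That of the transferrin receptor was 3.59, 3.76 and 2.89 in CCK-EGFP cells and 1.17, 3.04 and 3.05 in non-EGFP cells. The ranges overlapped for beta-actin (1.42 to 1.71 against 1.03 to 1.59) and for Gapdh (1.48 to 1.78 against 1.42 to 1.74). The part of RNA quality in the results was not tested.

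Of the 4 neuronal-type genes 3 were higher in CCK-EGFP cells and 0 lower, and of the 5 epithelial-type genes 0 were higher and 1 was lower (limma, Benjamini-Hochberg adjusted p under 0.05 over all genes). At an unadjusted p under 0.05, 3 neuronal-type genes were higher and 0 lower, and 1 epithelial-type gene, Stx2, was higher and 3, Snap23, Stx3 and Vamp8, lower. Among all genes 14.0% were called higher and 10.2% lower at the adjusted p. The share of all genes at an unadjusted p under 0.05 was not counted and can only be larger. The unadjusted counts therefore have no matching share beside them. The median log2 difference was 3.39 for the neuronal-type and -0.50 for the epithelial-type genes, beside -0.17 over all genes. Stx1a, Snap25 and Vamp2 rose, Snap23 fell, and Vamp1, Stx2, Stx3, Vamp3 and Vamp8 did not pass. In sorted pools, fewer cells of a type and less RNA per cell cannot be told apart.

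**Figure D1:**
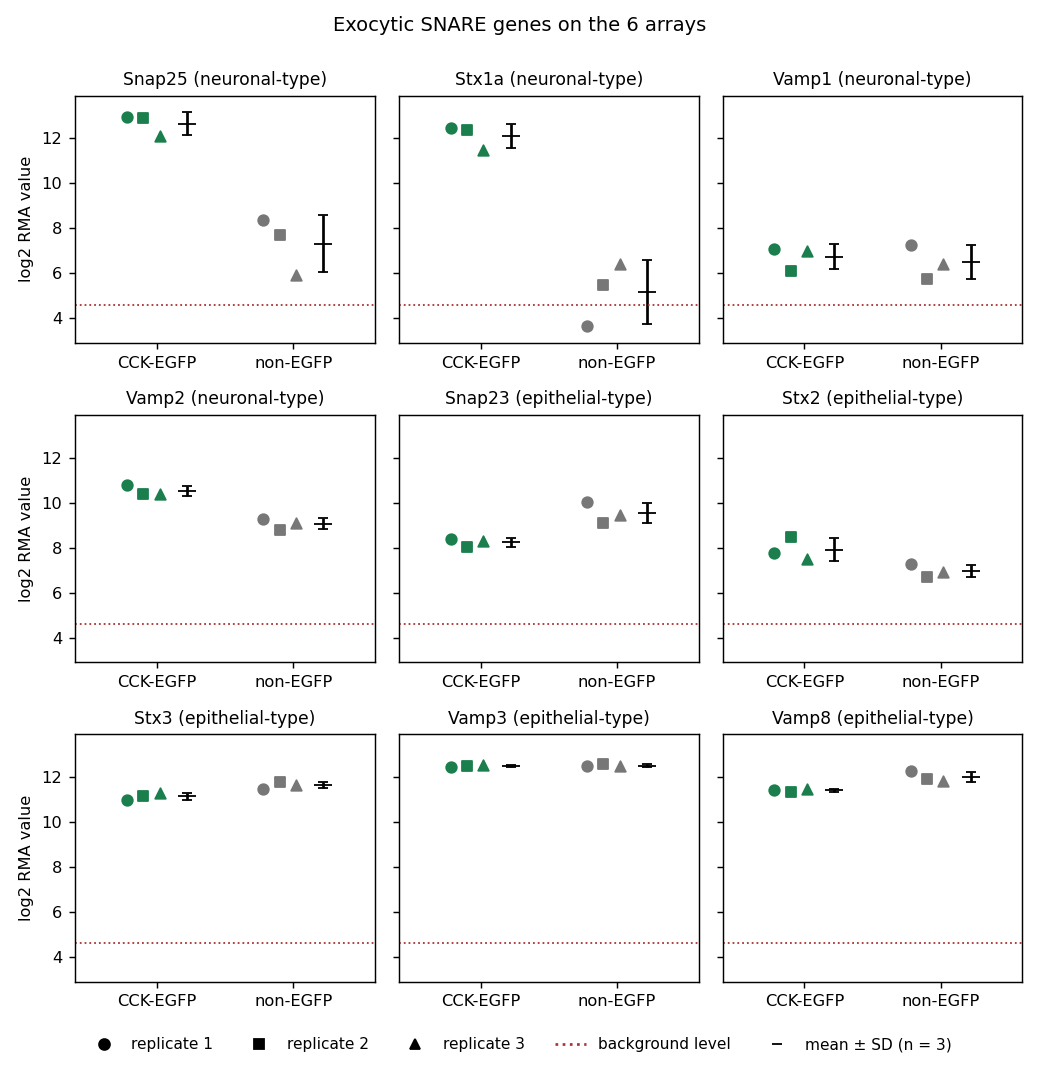
Log2 RMA values (y axis) of the 9 exocytic SNARE genes on the 3 CCK-EGFP (green) and 3 non-EGFP (grey) arrays, with the mean ± SD (n = 3) beside each group and the background level of 4.60 as a dotted line. Snap25 and Stx1a part widely between the groups, Vamp2 and Snap23 part by less, and the Vamp1 and Vamp3 points overlap; heights are not comparable between genes, since each probe set has its own response.

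Stx1a encodes syntaxin 1A, the plasma membrane syntaxin of synapses and of many endocrine granules. It read 12.48, 12.39 and 11.50 in CCK-EGFP cells and 3.64, 5.46 and 6.40 in non-EGFP cells. The CCK-EGFP arrays lay close together, while 1 non-EGFP array lay below the background level, and the groups were far from overlapping. The means were 12.12 ± 0.54 (SD, n = 3) and 5.17 ± 1.41, a 124-fold difference (log2 difference 6.95, SE 0.70, limma adjusted p = 0.00146). The probe set behind these values is of the kind whose probes can match other sequences as well (suffix x). The values given below for Vamp3, Snap47, Stxbp2 and Ang4 come from probe sets of that kind too. The other Stx1a probe set read 8.59, 8.66 and 7.82 against 4.06, 3.92 and 5.003, again without overlap, and was at least 13.5-fold higher against the background level (log2 difference 4.03, adjusted p = 0.00136 over all probe sets). Both probe sets put CCK-EGFP replicate 3 lowest in its group and non-EGFP replicate 3 highest in its own. Without CCK-EGFP replicate 3 the log2 difference was 7.26.

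The bases upstream of Stx1a are shown because it had the largest difference of the 9 genes. They were taken from RefSeq promoter windows (GRCm38.p6), which held 6 of the 9 genes, cut to the 250 bases before the transcription start. Snap25, Vamp2 and Vamp3 are named without a window. The stretch is chr5:135023232-135023481 on the plus strand, with motif matches in capitals.
Stx1a: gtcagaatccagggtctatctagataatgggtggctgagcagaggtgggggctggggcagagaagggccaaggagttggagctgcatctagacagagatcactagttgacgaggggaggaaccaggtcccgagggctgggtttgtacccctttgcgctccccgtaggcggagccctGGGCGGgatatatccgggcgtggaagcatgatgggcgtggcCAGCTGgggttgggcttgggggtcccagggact
Searched on both strands were the E-box CANNTG, which basic helix-loop-helix factors bind, the GC box GGGCGG, the CCAAT box CCAAT and the TATA box TATAAA, with a match that reads alike on both strands counted once. The marked matches do not overlap each other. The Stx1a window held 1 E-box that begins 33 bases before the start and 1 GC box that begins 74 bases before it. Among 32851 windows of this length 66.2% held an E-box, 32.7% a GC box, 33.8% a CCAAT box and 12.4% a TATA box, so both matches are common. G and C made up 62.0% of the Stx1a window.

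Snap25 encodes the plasma membrane SNARE that pairs with syntaxin 1A, and its loss or cleavage blocks transmitter release. Its values were 12.97, 12.91 and 12.09 in CCK-EGFP cells and 8.38, 7.69 and 5.90 in non-EGFP cells. Every array of both groups lay above the background level, and the lowest CCK-EGFP array stood well above the highest non-EGFP array. The means of 12.66 ± 0.50 and 7.32 ± 1.28 (SD, n = 3) differed 40.4-fold (log2 difference 5.34, SE 0.64, limma adjusted p = 0.00287). The other Snap25 probe set gave 12.27, 11.79 and 10.97 against 7.33, 6.26 and 4.62, a log2 difference of 5.60 (adjusted p = 0.00376 over all probe sets). As with Stx1a, replicate 3 was lowest among the CCK-EGFP arrays on both probe sets, and without it the log2 difference was 5.62. Within non-EGFP cells replicate 3 was the lowest array for Snap25 and the highest for Stx1a, so the residual signal of these partners did not order the 3 arrays alike.

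Vamp2 encodes the vesicle partner of these proteins, also called synaptobrevin 2. It read 10.77, 10.39 and 10.39 in CCK-EGFP cells and 9.29, 8.80 and 9.12 in non-EGFP cells. The arrays of each group lay close together and did not overlap with those of the other. The means of 10.52 ± 0.22 and 9.07 ± 0.25 (SD, n = 3) differed 2.73-fold (log2 difference 1.45, SE 0.22, limma adjusted p = 0.00667). A further Vamp2 probe set read 9.62, 9.03 and 8.16 against 9.04, 9.22 and 8.02. That set overlapped between the groups (log2 difference 0.17, 95% interval -0.95 to 1.30, adjusted p = 0.805 over all probe sets), so the rise of Vamp2 rests on 1 of its 2 probe sets, and the mean of both did not pass (log2 difference 0.81, adjusted p = 0.0821).

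Vamp1, the vesicle SNARE also called synaptobrevin 1, did not pass. Its values were 7.10, 6.08 and 7.01 in CCK-EGFP cells and 7.27, 5.75 and 6.43 in non-EGFP cells, and in both groups replicate 2 was the lowest array. The log2 difference was 0.25 (SE 0.46, limma adjusted p = 0.696) with a 95% interval of -0.85 to 1.34. Median centring of the arrays put it at -0.0039. The second Vamp1 probe set had both means below the background level (4.45 ± 0.05 and 4.59 ± 0.23). Another probe set shared with the gene E130112N10Rik was left out of the 22 and was below background on all 6 arrays.

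Snap23, the widely expressed relative of Snap25, went the other way. It read 8.37, 8.02 and 8.29 in CCK-EGFP cells and 10.03, 9.12 and 9.46 in non-EGFP cells. The CCK-EGFP arrays were the tighter group and all lay below the non-EGFP arrays. The means of 8.23 ± 0.19 and 9.54 ± 0.46 (SD, n = 3) made it 2.47-fold lower (log2 difference -1.31, SE 0.28, limma adjusted p = 0.0192). Of its other probe sets, 1 read 7.06, 6.14 and 6.83 against 8.66, 8.94 and 8.22 and also passed (-1.93, adjusted p = 0.0103 over all probe sets). The remaining set pointed the same way with overlapping arrays (-1.10, adjusted p = 0.187). The call on Snap23 ended without CCK-EGFP replicate 1 (adjusted p = 0.0559) or replicate 2 (0.0791), at log2 differences of -1.38 and -1.20.

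The corresponding bases upstream of Snap23 are shown as a counterpart from the gene that fell. They lie at chr2:120567421-120567670 on the plus strand of the same build, and capitals again mark motif matches.
Snap23: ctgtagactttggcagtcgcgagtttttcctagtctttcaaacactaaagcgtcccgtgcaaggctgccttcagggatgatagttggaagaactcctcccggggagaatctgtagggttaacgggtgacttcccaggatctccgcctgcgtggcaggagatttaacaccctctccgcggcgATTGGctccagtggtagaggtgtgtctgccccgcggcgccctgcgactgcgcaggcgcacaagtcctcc
The window held 1 CCAAT box on the minus strand that begins 69 bases before the start, and 0 E-boxes, GC boxes or TATA boxes. G and C made up 58.4% of it. No match says only that these letters are not in the window.

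Stx3 and Stx2 encode syntaxins of epithelial surfaces, syntaxin 3 being the one placed at the apical membrane of polarized cells. Stx3 read 10.97, 11.16 and 11.31 in CCK-EGFP cells and 11.49, 11.78 and 11.67 in non-EGFP cells. The arrays did not overlap, yet the difference was small and did not pass (log2 difference -0.50, 95% interval -0.96 to -0.05, limma adjusted p = 0.0990). Its 4 probe sets all pointed down, from -0.49 to -1.34. The set at -1.34 passed over all probe sets (adjusted p = 0.0278), with a CCK-EGFP mean of 4.11 ± 0.07 below the background level and a non-EGFP mean of 5.45 ± 0.56. Stx3 passed when the mean of its probe sets was used (-0.72, adjusted p = 0.0316) or when arrays were centred on their medians (-0.75, adjusted p = 0.0357). It also passed with trend and robust moderation (-0.50, adjusted p = 0.0480) and with its most variable probe set (-1.34, adjusted p = 0.0290).

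Stx2 was the epithelial-type gene with a positive difference. It read 7.76, 8.47 and 7.50 in CCK-EGFP cells and 7.26, 6.71 and 6.93 in non-EGFP cells, without overlap. The log2 difference was 0.94 (SE 0.31, 95% interval 0.21 to 1.68) and did not pass (limma adjusted p = 0.0678). It passed as higher with array weights (1.16, adjusted p = 0.0432), and in the other 16 of 17 alternatives it did not pass. It has 1 probe set here, so no second reading is at hand.

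Vamp8 and Vamp3 encode vesicle SNAREs of non-neuronal cells, VAMP8 (endobrevin) acting in the granule release of exocrine and blood cells and VAMP3 (cellubrevin) in recycling endosomes. Vamp8 read 11.43, 11.34 and 11.47 in CCK-EGFP cells and 12.27, 11.94 and 11.83 in non-EGFP cells. Each CCK-EGFP array lay below each non-EGFP array, but the difference did not pass (log2 difference -0.60, 95% interval -1.07 to -0.14, limma adjusted p = 0.0659). Vamp8 passed with arrays centred on their medians (-0.86, adjusted p = 0.0331). It also passed with trend and robust moderation (-0.60, adjusted p = 0.0245) and with array weights (-0.60, adjusted p = 0.0478). Vamp3 was nearly level, at 12.46, 12.51 and 12.53 against 12.47, 12.60 and 12.48. Its log2 difference was -0.016 (adjusted p = 0.950) with a 95% interval of -0.41 to 0.38. The 5 Vamp3 probe sets ranged from -0.27 to 0.01 and 0 of them passed. Of the 9 genes, 4 were higher without overlap between the groups and 3 lower without overlap, where 21.8% and 28.1% of all genes did so.

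**Figure D2:**
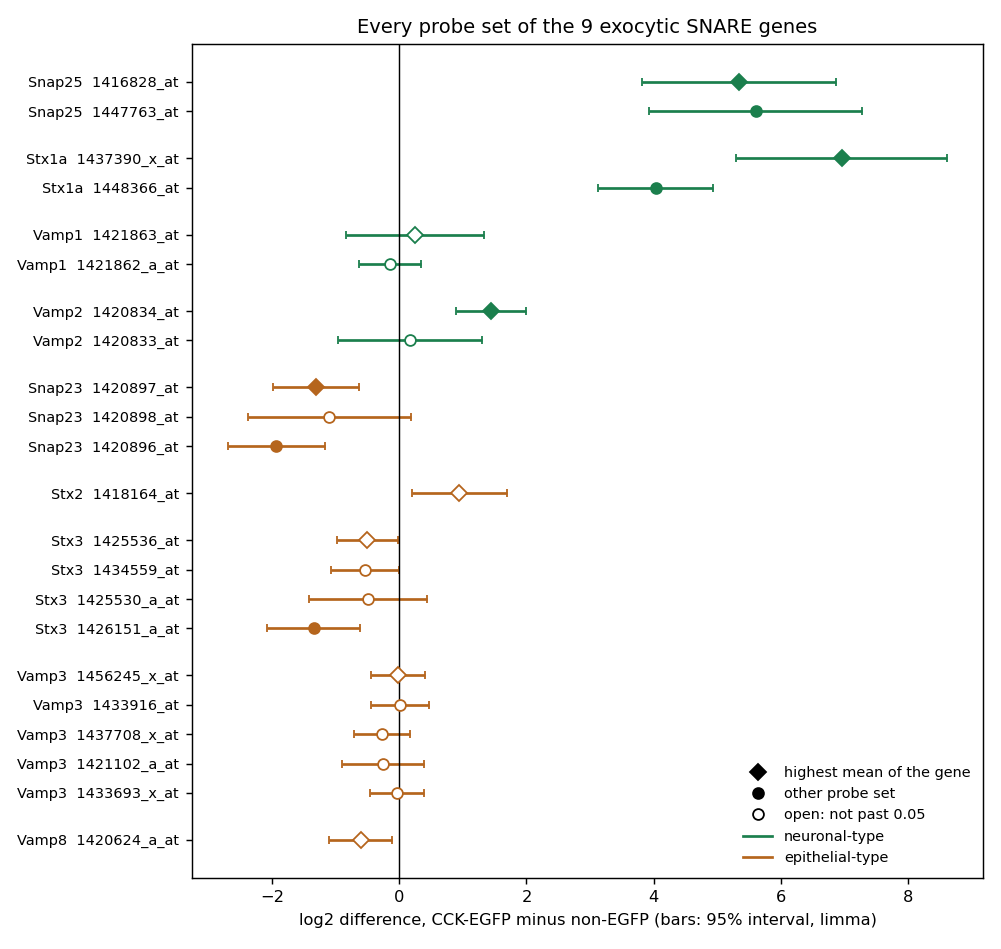
Log2 difference between CCK-EGFP and non-EGFP cells (x axis) for each of the 22 probe sets of the 9 genes, with 95% intervals from limma. Green marks neuronal-type and brown epithelial-type genes, diamonds the probe set with the highest mean, and open symbols those not past 0.05 over all probe sets; both sets of Snap25 and of Stx1a lie far to the right, while the Vamp2 sets disagree and the 3 Snap23 sets all lie to the left.

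Over the 22 probe sets, 5 were called higher, all of them of neuronal-type genes, and 3 lower, all of Snap23 or Stx3. The shares over all probe sets were 10.4% higher and 8.52% lower. Centring the arrays on their medians moved the median over all genes down by 0.25, and calls over all genes went from 2540 higher and 1851 lower to 2101 (11.5%) higher and 3605 (19.8%) lower. Under that scaling the 9 genes gave 3 higher and 3 lower calls, Stx3 and Vamp8 joining Snap23.

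Whether a neuronal-type gene changed more than its epithelial-type counterpart was asked within arrays, where a shift of a whole array cancels. For each array the log2 value of 1 gene was subtracted from that of its counterpart, and these differences were compared between groups. Their size within a group depends on the probes, so only the shift between groups can be read. The pairs held only Snap25, Stx1a and Vamp2, the neuronal-type genes called higher, and Vamp1 was in none. All 5 pairs shifted toward the neuronal-type gene on every CCK-EGFP array, as that choice made likely. Each gave p = 0.10 in an exact two-sided permutation test over samples, the smallest value that 3 against 3 allows, and 0.10 after adjustment over the 5 pairs, so none can pass 0.05 by this test.

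In the SNAP family, Snap25 minus Snap23 was 4.60, 4.89 and 3.79 in CCK-EGFP cells and -1.65, -1.43 and -3.56 in non-EGFP cells. The balance shifted by 6.64 (SE 0.75), of which the rise of Snap25 made up the larger share. In the syntaxins, Stx1a minus Stx3 was 1.50, 1.23 and 0.20 against -7.85, -6.32 and -5.27, a shift of 7.46 (SE 0.85). Stx1a minus Stx2 shifted by 6.01 (SE 0.97). The non-EGFP arrays differed among themselves most in these syntaxin pairs, by the spread of Stx1a there. In the vesicle SNAREs the shifts were smaller, at 2.05 (SE 0.18) for Vamp2 minus Vamp8 and 1.46 (SE 0.24) for Vamp2 minus Vamp3. Between arrays of the same replicate number they ran from 1.64 to 2.33 and from 1.21 to 1.68, and those of the SNAP pair from 6.25 to 7.36. The syntaxin pairs had wider ranges, from 4.53 to 8.34 for Stx1a minus Stx2 and from 5.47 to 9.36 for Stx1a minus Stx3. Both Vamp2 shifts use its probe set with the highest mean, while its other set differed by only 0.17 between the groups. With the mean of each gene's probe sets they were 1.42 against Vamp8 and 0.92 against Vamp3.

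**Figure D3:**
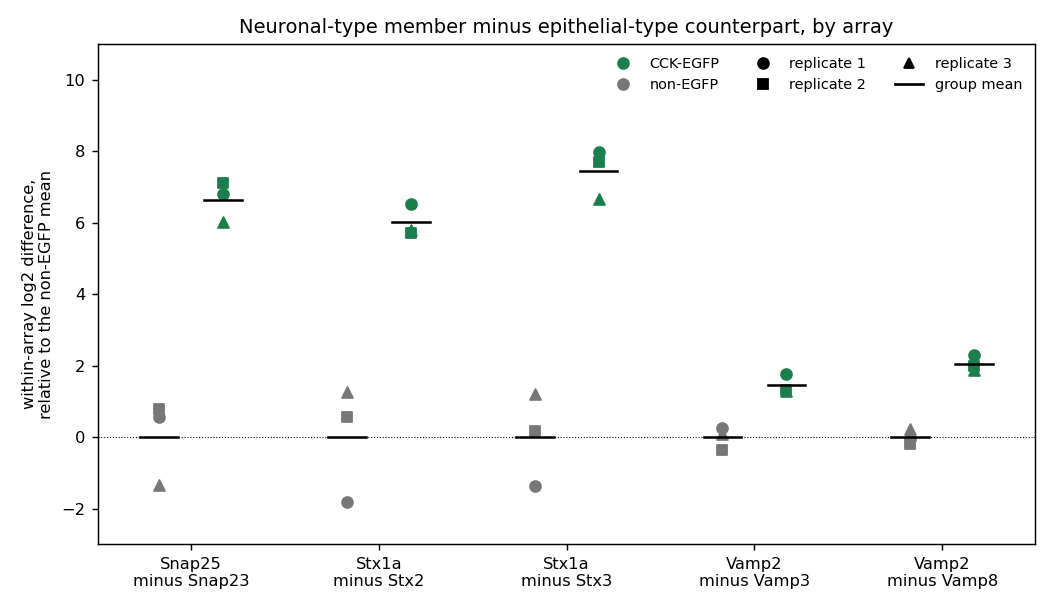
Within-array log2 difference between a neuronal-type gene and its epithelial-type counterpart (y axis, relative to the mean of the non-EGFP arrays) for 5 pairs, with 1 point per array and a line at each group mean (n = 3). Green CCK-EGFP points lie above all grey non-EGFP points in each pair. The group means differ by 6.64, 6.01 and 7.46 for the SNAP and syntaxin pairs and by 1.46 and 2.05 for the Vamp2 pairs. Vamp1 is in no pair.

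Among regulators of the SNARE bundle, 5 of 15 measured were higher, 0 lower and 10 did not pass by limma, beside 14.0% higher and 10.2% lower over all genes. Their median log2 difference was 0.73. At an unadjusted p under 0.05, for which the share over all genes was not counted, 6 were higher and 1 lower. Complexins clamp and then promote fusion. Cplx2 had the largest difference of the list and read 10.46, 11.24 and 10.82 in CCK-EGFP cells and 6.78, 6.19 and 6.74 in non-EGFP cells, a 19.4-fold difference (log2 difference 4.28, SE 0.28, limma adjusted p = 0.000357). Cplx1 read 6.92, 7.14 and 7.85 against 3.68, 4.61 and 4.62. It was at least 6.52-fold higher against the background level (fitted log2 difference 2.998, adjusted p = 0.00297), although its lowest probe set differed by -0.71. Cplx3 and Cplx4, known mainly from the retina, had both means below background and differed by -0.14 and -0.60 without passing.

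Stxbp5l encodes tomosyn-2, a syntaxin-binding brake on SNARE assembly, and stood at 10.29 ± 0.71 against 6.99 ± 0.28 (SD, n = 3; log2 difference 3.30, adjusted p = 0.00247 by limma). Its relative Stxbp5 (tomosyn-1) rose by 0.85 (adjusted p = 0.0355) and Snapin, a SNAP-25 binding protein, by 1.54 (adjusted p = 0.0294). The calls on Stxbp5 and Snapin ended without any 1 array other than CCK-EGFP replicate 3 for Stxbp5 and non-EGFP replicate 3 for Snapin (adjusted p up to 0.126 and 0.106). Of the Munc18 proteins, the chaperones of syntaxins, Stxbp2, the epithelial and blood cell form, read 11.34 ± 0.13 against 11.70 ± 0.14 (log2 difference -0.37, adjusted p = 0.174). Stxbp3 differed by -0.19 (adjusted p = 0.667). Napg, an adaptor of the NSF ATPase that takes used bundles apart, differed by -0.031 (adjusted p = 0.918).

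Other SNAREs of the plasma membrane and its vesicles moved both ways. Of 7 measured, 2 were higher, 3 lower and 2 did not pass, where 14.0% of all genes were higher and 10.2% lower. The median of the 7 was -0.13. Vamp5, a VAMP best known from muscle, read 6.51, 6.86 and 7.50 in CCK-EGFP cells and 9.09, 9.22 and 8.91 in non-EGFP cells. It was 4.34-fold lower (log2 difference -2.12, SE 0.29, limma adjusted p = 0.00442). Snap47, a further SNAP-family member, read 12.60, 12.60 and 12.21 against 10.43, 11.18 and 10.85 and was 3.14-fold higher (log2 difference 1.65, adjusted p = 0.00695). So Snap25 and Snap47 rose while Snap23 and Snap29 fell, Snap29 by 1.33 (adjusted p = 0.0486). Its call ended without any 1 array other than non-EGFP replicate 3 (adjusted p up to 0.126).

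Stx4a, a basolateral syntaxin, fell by 0.98 (limma adjusted p = 0.0200), and its call ended when replicate 1 or 2 of either group was left out (adjusted p up to 0.0817). Stx19 was called higher (log2 difference 0.71, adjusted p = 0.0377), but both of its means were below background, and with the replicate number as a block it did not pass (adjusted p = 0.0691). That left 1 higher call of the 7, where the block called 2340 of all 18193 genes higher. Vamp7 (log2 difference -0.13, adjusted p = 0.636) and Stx11 (0.39, adjusted p = 0.814) did not pass, and the Stx11 arrays spread widely within both groups, from 3.89 to 6.90 and from 3.16 to 7.27.

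Most SNAREs that act between the Golgi, the endoplasmic reticulum and endosomes did not pass, as did 13802 of all 18193 genes. Of 21, 1 was higher, 5 lower and 15 did not pass, where 14.0% of all genes were higher and 10.2% lower. Their median log2 difference was -0.21, near the -0.17 of all genes. The lower genes were Vti1a (-1.21, limma adjusted p = 0.0489, with probe sets from -1.21 to 0.80), Sec22c (-1.15), Bet1 (-0.98), Sec22a (-0.80) and Bet1l (-0.75), and the higher one was Vamp4, a trans-Golgi VAMP (0.70, adjusted p = 0.0286). With the replicate number as a block 0 were higher and 2 lower, beside 2340 and 1534 of all genes. With any 1 of the 6 arrays left out 0 were higher and 0 to 2 lower. Stx5a, the Golgi syntaxin, read 12.26 ± 0.03 against 12.59 ± 0.13 (adjusted p = 0.195). Use1 (log2 difference -0.15, adjusted p = 0.658) and Sec22b (-0.73, adjusted p = 0.0503) also did not pass.

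**Figure D4:**
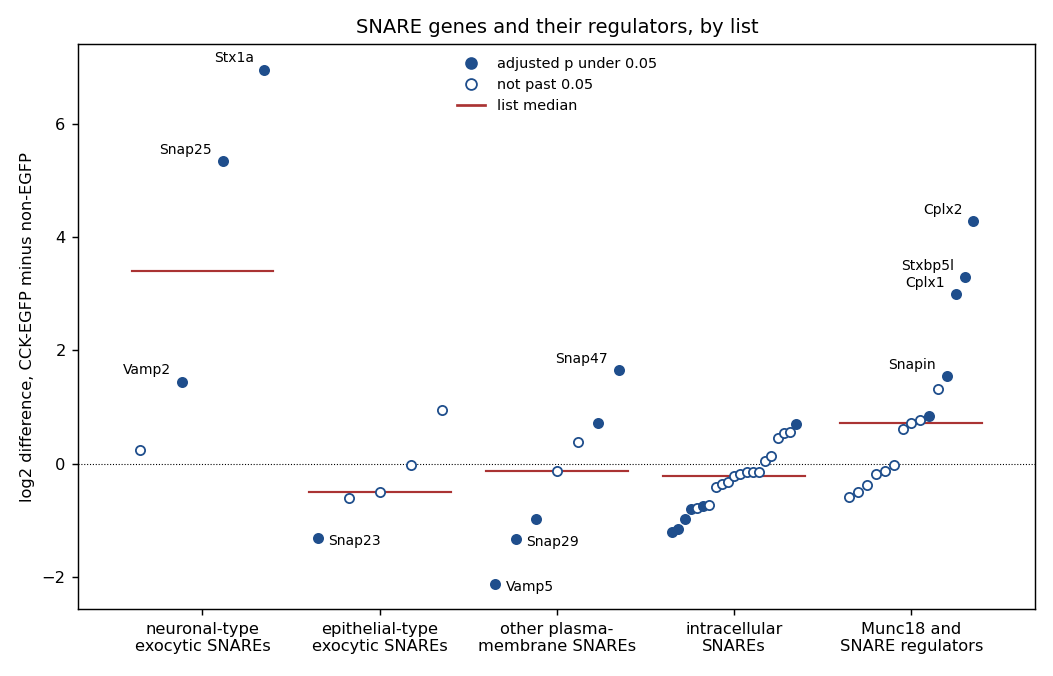
Log2 difference between CCK-EGFP and non-EGFP cells (y axis) for each measured gene of 5 lists, ordered by size within a list; filled points passed an adjusted p of 0.05 and red lines mark list medians. The list medians are 3.39, -0.50, -0.13, -0.21 and 0.73, from the neuronal-type genes on the left to the regulators on the right, and Stx1a, Snap25, Cplx2, Stxbp5l and Cplx1 stand above the other points.

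Genes whose 6 values followed those of Snap25 and Stx1a most closely were sought among 12974 genes above the background level, by the Euclidean distance between log2 profiles centred on their own mean. For Snap25 the nearest were Gsdma (0.67), Wnt3 (0.67), Prox1 (0.77) and Tnnc1 (0.79). For Stx1a they were Vgf (1.29), the synaptic vesicle protein gene Syp (1.33), Slc35d3 (1.48) and Fxyd6 (1.52). Snap25 and Stx1a lay 4.21 apart, with 957 genes nearer to Snap25 than Stx1a was. Wnt3, Slc35d3 and Fxyd6 were below the background level on all 3 non-EGFP arrays, and Prox1, Tnnc1, Vgf and Syp on 1 of them, so these distances and their order rest partly on values not above background. The distances are a description over 6 arrays in which the step between the groups carries most of the pattern.

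Because the neuronal-type genes are named for neurons, markers of enteric neurons and glia were read on the same arrays. Of 12 measured, 5 were higher in CCK-EGFP cells, 0 lower and 7 did not pass by limma, beside 14.0% higher and 10.2% lower over all genes. At an unadjusted p under 0.05, for which the share over all genes was not counted, 6 were higher and 4 lower. The mean level of the list was 5.87 to 6.29 against 4.13 to 4.69. Ret, a receptor of enteric neuron precursors, stood at 10.72 ± 0.63 against 4.44 ± 0.88 (SD, n = 3), Elavl3 at 8.58 ± 0.54 against 4.03 ± 0.38 and Uchl1 at 8.19 ± 0.26 against 4.22 ± 0.68. Snap91 (8.95 ± 0.44 against 3.35 ± 0.24) and Gfap (4.69 ± 0.37 against 3.45 ± 0.14) were the other higher genes, and the lowest probe set of Elavl3 differed by -0.61, of Snap91 by -0.28 and of Gfap by -0.40. The Gfap call ended when CCK-EGFP replicate 1 or 2 was left out. Other markers, named with Snap91 and Gfap after their values were seen, had means below the background level in CCK-EGFP cells: Elavl4 at 4.03 ± 0.35, Chat at 4.15 ± 0.61, Nos1 at 4.09 ± 0.17, Sox10 at 4.38 ± 0.34 and S100b at 4.07 ± 0.17. Prph, named likewise, read 5.39 ± 0.25 against 5.42 ± 0.60 and lay above that level on every array of both groups. Tubb3, the remaining marker, read 5.41, 6.03 and 5.78 against 5.14, 5.38 and 4.57, without overlap and above the background level on every CCK-EGFP array (log2 difference 0.71, limma adjusted p = 0.112). The highest probe set of Elavl4 differed by 1.02. None of these 7 was higher in CCK-EGFP cells by the test.

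Markers of myeloid and mast cells, of T and NK lymphocytes and of stroma and endothelium gave 0 calls in either direction by limma, of 12, 9 and 10 genes. Both means lay below the background level for 3, 0 and 6 of these genes. The mean level of the myeloid and mast cell list ran from 5.50 to 7.88 in CCK-EGFP and from 6.49 to 7.88 in non-EGFP cells. With such floors and spreads, 0 calls does not show equal levels. At an unadjusted p under 0.05 the myeloid and mast cell list had 1 higher and 3 lower, the lymphocyte list 0 and 0, and the stromal list 2 higher and 1 lower, and limma with trend and robust moderation called 0 in all 3 lists. Enterocyte markers gave 0 higher and 2 lower of 10, Treh (-1.94) and Slc5a1 (-1.40), and goblet and Paneth markers 0 higher and 2 lower of 10, Muc2 (-1.33) and Spdef (-0.97). Over all genes 14.0% were called higher and 10.2% lower. At an unadjusted p under 0.05, 0 enterocyte markers were higher and 6 lower, and 0 goblet and Paneth markers higher and 3 lower. For none of these lists was the share of all genes at that unadjusted cut counted. Trend and robust moderation called 5 and 4 lower, beside 2694 higher and 2090 lower of all 18193 genes. The calls on Treh, Slc5a1 and Muc2 ended without any 1 array other than CCK-EGFP replicate 3, while Spdef failed the threshold if 1 of the 3 CCK-EGFP arrays, or replicate 1 of the non-EGFP arrays, was dropped. In the fit blocked by replicate number Treh failed the threshold (adjusted p = 0.0527), which left 1 lower enterocyte marker. Over all 18193 genes that fit called 2340 higher and 1534 lower. It called 5 goblet and Paneth markers lower, adding Itln1 (-1.16, adjusted p = 0.0247), Ang4 (-1.38, adjusted p = 0.0298) and Mmp7 (-2.07, adjusted p = 0.0352). In the myeloid and mast cell list it called Lyz2 lower (-1.70, adjusted p = 0.0253) and Kit higher (1.63, adjusted p = 0.0449). The lower values of Snap23, Stx3 and Vamp8 stood beside these falls, and the part of enterocytes and goblet cells in them was not tested.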

How the data were processed

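Expression was measured on 6 mouse arrays from biotin-labelled RNA that had been amplified from picogram amounts, per the labels' protocols. The authors deposited log2 values made with RMA, per the submitters' processing notes, a method of background correction, quantile normalization and probe set summary. Version and options: not given in the sources used here. Detection calls were not used. The arrays gave 45101 probe sets, with medians of 5.66 to 5.72 in CCK-EGFP and 5.37 to 5.55 in non-EGFP cells. Probe sets were named from GEO's platform annotation, and RefSeq identifiers (GRCm38.p6) changed 0 of them.

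The comparison used limma 3.58.1 (R 4.3.3) with eBayes moderation, two-sided p-values and Benjamini-Hochberg adjustment across 18193 genes, and was checked on simulated data. Counts of calls use an adjusted p of 0.05. The labels do not say what a replicate number marks, though deviations from group means correlated at 0.270, 0.159 and 0.219 between same-number arrays. Between arrays of different number the correlations were all negative, from -0.245 to -0.011. The main test was set without a block on this number. The block was run as an alternative, and the counts it changed are given with the other alternatives.

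Named are the 9 members, Cck, up to 6 genes past the threshold and 3 not past it from each other SNARE list, up to 3 markers per cell type by mean level, and the 4 nearest genes in pattern. Named outside this rule, after their values were seen, are Cplx3, Cplx4 and the markers that are not among the 3 with the highest mean of their list. The members and lists were chosen with earlier results of these data known. Alternatives were the block, filters on dim genes, moderation, array weights, scaling, probe set choice, a test against a difference of 0.5 and leaving out each array.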

Additional observations from a re-analysis of the deposited data

How the results depend on the processing

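Snap25 and Stx1a kept their direction and passed under all 17 alternatives (log2 differences 4.63 to 5.87 and 5.49 to 7.57), and Vamp2 under all but the mean of its probe sets (0.81). The count of higher members stayed between 2 and 4. Snap23 stayed negative throughout (-1.93 to -1.06). Lower members numbered 3 with trend and robust moderation or median centring, 2 with array weights, the mean of probe sets or the most variable probe set, and 0 in a test against a difference of 0.5. Vamp1 turned to -0.0039 with median centring and -0.0064 with a second quantile normalization. Across all genes median centring gave 3605 lower, and the test against 0.5 gave 1487 higher and 487 lower. Higher and lower calls numbered 2340 and 1534 with the replicate block and 2694 and 2090 with trend and robust moderation. They numbered 2927 and 2389 with array weights, 2415 and 2236 with the mean of probe sets and 2382 and 1742 with the most variable probe set. In the other plasma-membrane list 1 gene was higher with the replicate block, either filter on dim genes, median centring, each probe set tested alone or the test against 0.5 (then also 1 lower), and 0 with the most variable probe set. In the intracellular list 0 were higher with the replicate block, median centring, the most variable probe set or the test against 0.5, and 2 were lower with the block, 8 with the mean of probe sets, 3 with each probe set alone and 0 against 0.5. Regulators gave 3 higher against 0.5. The mean of probe sets moved the shifts of Stx1a minus Stx2 to 4.55, Stx1a minus Stx3 to 6.21, Vamp2 minus Vamp3 to 0.92 and Vamp2 minus Vamp8 to 1.42. The replicate block changed no call of the 9 members, and over same-number pairs each shift had p = 0.25 in an exact sign-flip test, the smallest that 3 pairs allow.

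With 1 array left out at a time, higher members numbered 3 and lower members 0 to 1, all genes 1365 to 2486 higher and 505 to 1962 lower, other plasma-membrane SNAREs 1 to 2 higher and 1 to 3 lower, intracellular SNAREs 0 higher and 0 to 2 lower, and regulators 3 to 5 higher and 0 to 1 lower. Vamp1 ranged from -0.12 to 0.64 and Vamp3 from -0.037 to 0.026, turning sign without CCK-EGFP replicate 1 (0.0041) for Vamp3 and without non-EGFP replicate 2 for both. Shifts ranged from 5.97 to 7.03 for Snap25 minus Snap23, 5.10 to 6.65 for Stx1a minus Stx2, 6.77 to 8.06 for Stx1a minus Stx3, 1.29 to 1.60 for Vamp2 minus Vamp3 and 1.93 to 2.17 for Vamp2 minus Vamp8. The causes of these changes were not tested. Differences near the background level are the least certain, and 3 arrays a group limit every interval.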
